A study of Mus musculus with 4 samples.

Results

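The colony-stimulating factor axis was followed through the cells of a brain lesion by 6 genes of the 33696 measured. These genes were chosen by name, with earlier results of these data known. They were the ligand genes Csf1 (ENSMUSG00000014599) and Il34 (ENSMUSG00000031750), and the receptor genes Csf1r (ENSMUSG00000024621), Csf2ra (ENSMUSG00000059326), Csf2rb (ENSMUSG00000071713) and Csf3r (ENSMUSG00000028859). Nuclei came from mouse brain at 21 days post-injury (dpi) after photothrombosis (PT), in which light through the skull excites a dye in the blood and clots the cortical vessels. Mice labelled WT, the control, were compared with mice labelled Col1a2(creER); Cxcl12(flox), called Cxcl12-cKO, in which an inducible Cre expressed by fibroblasts acts on a floxed gene for the chemokine CXCL12. Mice of both groups had the PT injury, were of C57BL/6 background and, by the general methods, 7 to 21 weeks old. In each genotype 1 male and 1 female mouse were pooled into 1 library, and nuclei of lesion and parenchyma carried separate tags and were counted as unique molecular identifiers (UMIs) near the 3′ end of transcripts.

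CSF1 and IL-34 are alternative ligands of the receptor CSF1R, a tyrosine kinase on which microglia and most tissue macrophages depend for survival and division. In the healthy brain IL-34 is known mainly as a neuronal product and CSF1 as a glial product. CSF2RA is the ligand-binding chain of the receptor for GM-CSF, and CSF2RB is the signalling chain that this receptor shares with those for IL-3 and IL-5. CSF3R is the receptor for G-CSF, best known from neutrophils. Levels below are in CPM, the UMIs of a gene scaled by all UMIs of the class, with an exact 95% Poisson interval in brackets where stated. Csf2, the GM-CSF gene, had 0 UMIs in each of the 4 matrices, which allows up to 0.110 and 0.120 CPM in the lesions and 0.0775 and 0.0768 CPM in the parenchyma. Csf3, the G-CSF gene, had 8 and 8 UMIs in the lesions and 2 and 3 in the parenchyma.

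The 4 matrices held 21743 nuclei after filtering, 7933 to 8095 per lesion and 2838 to 2877 per parenchyma, with medians of 2962 to 2975 UMIs per nucleus in the lesion and 15915 to 16648 in the parenchyma. Nuclei were clustered and named from marker lists, so a name such as myeloid-like means that those markers led. Between the libraries, 22 barcodes were shared by the lesion matrices and 1 to 15 by the other pairs, with 0 shared within a library. Cxcl12 itself stood in lesional fibroblast-like nuclei at 106 (101 to 112) CPM under the label control and at 215 (207 to 222) CPM under the label Cxcl12-cKO. This goes against the labels, so directions between libraries are those of the labels and not of a shown deletion, and 3′ counts do not check a deletion elsewhere in the gene. With 1 library per genotype, ratios between the libraries have no replicate and their intervals cover counting error only. The 2 mice of each label allow an exact permutation test that cannot pass 0.05.

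Where 2 values are joined by "and", the first is from the control-labelled and the second from the Cxcl12-cKO-labelled library. CPM from 3′ counts are set side by side within a gene and not between genes. The classes were made by clustering on all variable genes, so the order of classes for a gene is a description with no test.

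The 6 members fell into 3 patterns. Csf1r, Csf2rb and Csf3r were concentrated in myeloid-like nuclei. Csf2ra was found in myeloid-like nuclei and in neurons. The ligand genes Csf1 and Il34 were spread over fibroblast-like, vascular, glial and neuronal nuclei, and differed in where they were highest.

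**Figure D1:**
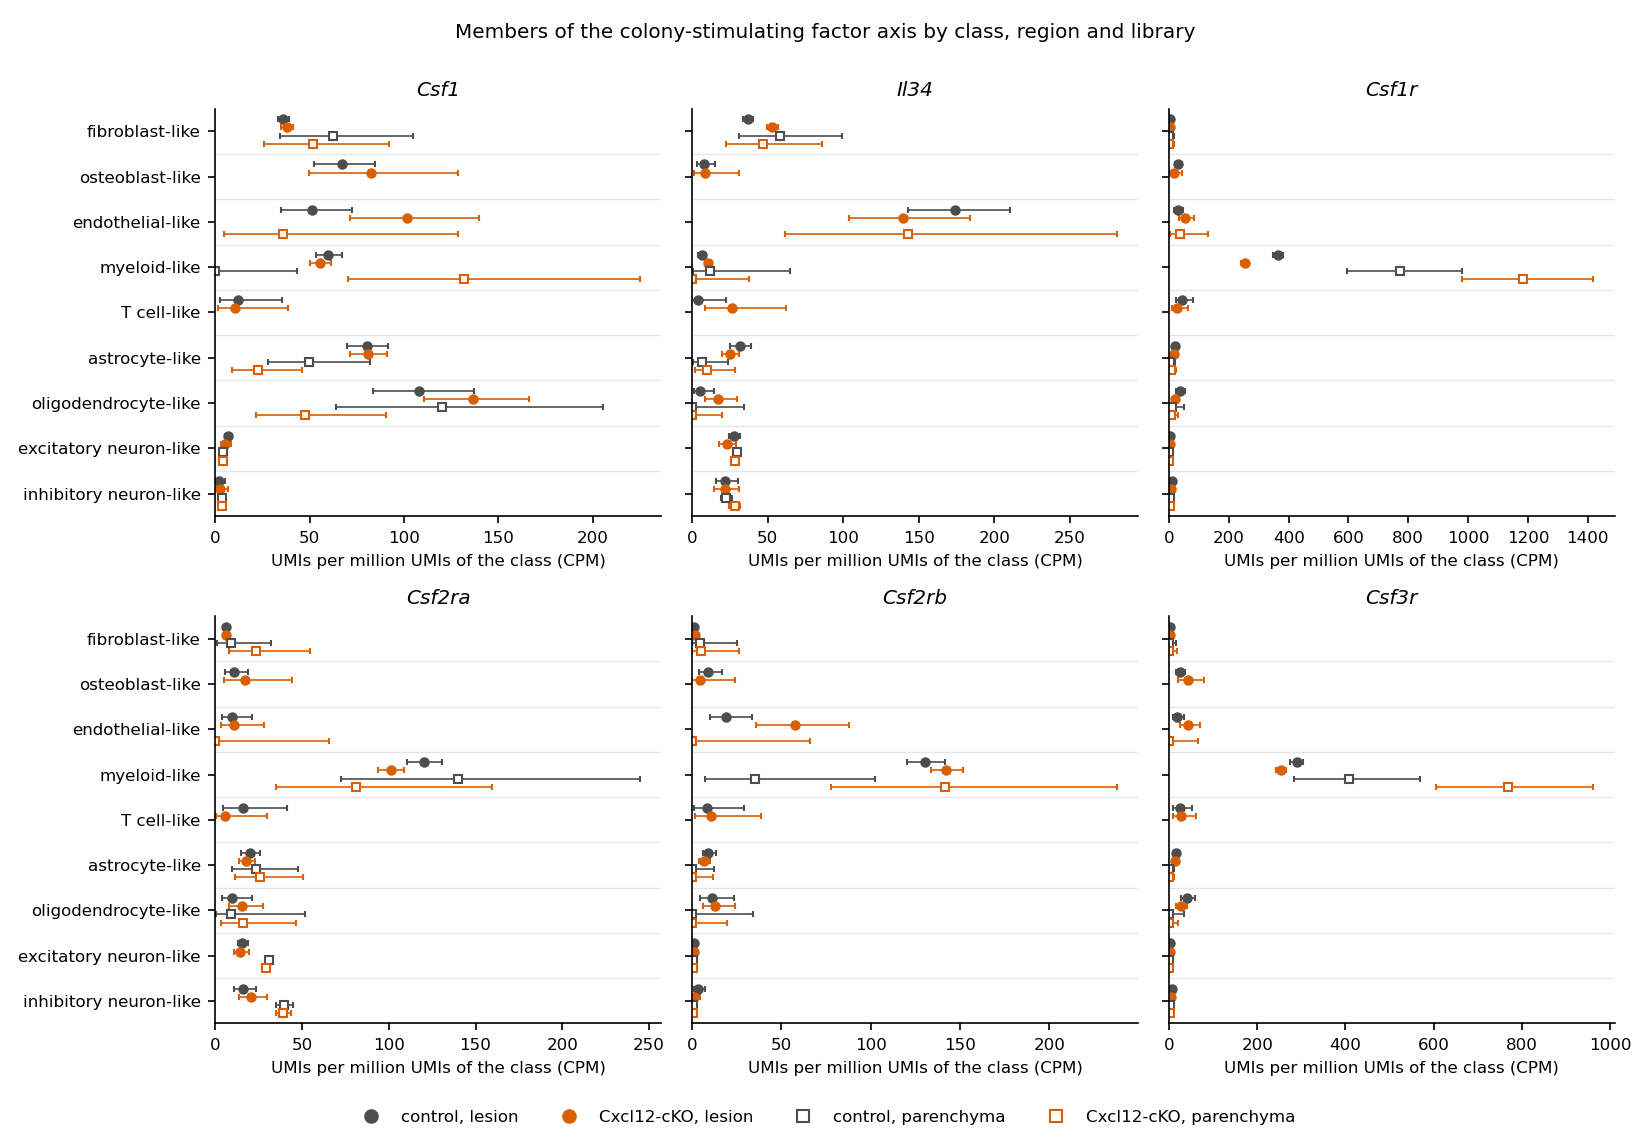
CPM of the 6 members (horizontal axes, linear) in 9 marker-named classes, with filled circles for lesion and open squares for parenchyma, grey for the control-labelled and orange for the Cxcl12-cKO-labelled library. Bars are exact 95% Poisson intervals and groups under 20 nuclei are left out. Csf1r, Csf2rb and Csf3r stand out in myeloid-like nuclei, where lesional Csf1r is 364 and 254 CPM, and Csf2ra is also seen in both neuronal classes.

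Csf1, the ligand gene best known from stromal and glial cells, was present at 37.1 and 44.8 CPM over all lesional nuclei and at 4.64 and 4.87 CPM over all parenchymal nuclei. Fibroblast-like nuclei held the largest share of the lesional Csf1 UMIs, 41.3% and 40.1%, at 51.2% and 51.3% of the nuclei. Per UMI, their level of 36.0 (33.0 to 39.3) and 38.0 (34.9 to 41.2) CPM was below that of oligodendrocyte-like, astrocyte-like and osteoblast-like nuclei.

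Among the classes, oligodendrocyte-like nuclei had the highest lesional Csf1 level in both libraries, 108 (83.6 to 137) and 136 (111 to 166) CPM. Of these nuclei 24.4% and 32.7% had a Csf1 UMI. Astrocyte-like nuclei had 80.1 (69.9 to 91.4) and 80.8 (71.4 to 91.1) CPM, and osteoblast-like nuclei 66.9 (52.0 to 84.7) and 82.3 (49.5 to 129) CPM. The mixed endothelial-like class was at 51.2 (35.0 to 72.3) and 101 (71.4 to 140) CPM. Of these 4 classes each interval overlapped that of its neighbour in the order, in both libraries, so neighbours were not told apart. The oligodendrocyte-like interval lay above that of the mixed endothelial-like class in the control-labelled library. In the Cxcl12-cKO-labelled library it lay above that of astrocyte-like nuclei. Myeloid-like nuclei, which carry the receptor, also held Csf1 at 60.0 (53.2 to 67.4) and 55.4 (50.0 to 61.2) CPM. At the other end, inhibitory neuron-like nuclei of the lesion had 3 and 3 Csf1 UMIs and excitatory neuron-like nuclei 6.61 and 5.11 CPM.

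Within fibroblast-like nuclei each of the 4 states held Csf1. It was 44.3 and 52.7 CPM in subcluster 0 (late inner-like), 40.2 and 26.9 in subcluster 1 (dural-like by a weak marker score), 20.4 and 23.5 in subcluster 2 and 39.0 and 41.8 in subcluster 3, both leptomeningeal-like. Subcluster 2 was lowest in both libraries, with intervals of 16.1 to 25.5 and 19.0 to 28.9 CPM, the second of which overlapped that of subcluster 1. Among vascular nuclei, endothelial-like subcluster 4 had 138 and 244 CPM, from 18 and 17 UMIs in 43 and 18 nuclei. Endothelial-like subcluster 0 had 7.83 and 65.3 CPM, from 1 and 6 UMIs.

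Il34, the second CSF1R ligand gene, was at 30.2 and 35.6 CPM over all lesional nuclei and at 28.9 and 28.2 CPM over all parenchymal nuclei. In the parenchyma 86.2% and 81.4% of its UMIs were in excitatory neuron-like nuclei, which made up 76.1% and 73.2% of the nuclei. In the lesion 52.1% and 70.2% were in fibroblast-like nuclei.

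Lesional Il34 was concentrated in a mural-like subcluster and in a leptomeningeal-like fibroblast subcluster. Mural-like nuclei (vascular subcluster 2), named from markers of pericytes and smooth muscle, had 1695 (1331 to 2128) and 1149 (796 to 1606) CPM. These values rested on 74 and 34 UMIs in 24 and 10 nuclei, of which 75.0% and 80.0% had an Il34 UMI. By contrast endothelial-like subcluster 4 had 0 UMIs in both libraries, which allows up to 28.3 and 52.9 CPM.

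Fibroblast-like subcluster 3, which had Kl, Col13a1 and Col15a1 among its leading genes, had 280 (250 to 312) and 253 (228 to 280) CPM of Il34, with a UMI in 31.9% and 34.1% of nuclei. It contributed 323 of 527 and 376 of 772 Il34 UMIs of the fibroblast-like class, from 370 and 458 nuclei. The other fibroblast-like states lay far lower, at 15.3 and 31.7 CPM in the late inner-like, 9.80 and 12.9 in the dural-like and 23.6 and 42.9 in the second leptomeningeal-like subcluster. In fibroblast-like nuclei 31 and 56 carried both Csf1 and Il34, against 28.8 and 44.1 from the product of the shares, a description for sparse counts.

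Among glia, Il34 was seen in astrocyte subcluster 3, which had Ptx3, Chil1 and Steap4 among its leading genes, at 82.1 (63.2 to 105) and 42.8 (33.0 to 54.5) CPM. Astrocyte subcluster 1 had 3 and 0 UMIs, and lesional oligodendrocyte-like nuclei had 3 and 12 UMIs (4.83 and 16.9 CPM). Lesional myeloid-like nuclei had 6.17 and 10.6 CPM, and their fibroblast marker sum was 994 and 667 CPM over 7 of 7 markers. The part of those markers in the myeloid Il34 level was not tested.

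In the parenchyma, Il34 differed among neuron types. It was 35.7 (31.4 to 40.3) and 37.4 (33.0 to 42.3) CPM in middle layer-like, 27.7 and 28.0 in upper layer-like, and 16.3 (12.9 to 20.3) and 12.4 (9.38 to 16.0) CPM in deep layer-like subcluster 10. Interneurons split as well, with 26.0 (20.9 to 32.0) and 36.0 (30.6 to 42.0) CPM in Pvalb/Sst-like nuclei and 11.9 (6.82 to 19.4) and 13.6 (8.30 to 21.0) CPM in Adarb2-like nuclei. In both libraries the interval of the deep layer-like nuclei lay below that of the middle layer-like nuclei, and that of the Adarb2-like below that of the Pvalb/Sst-like.

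**Figure D2:**
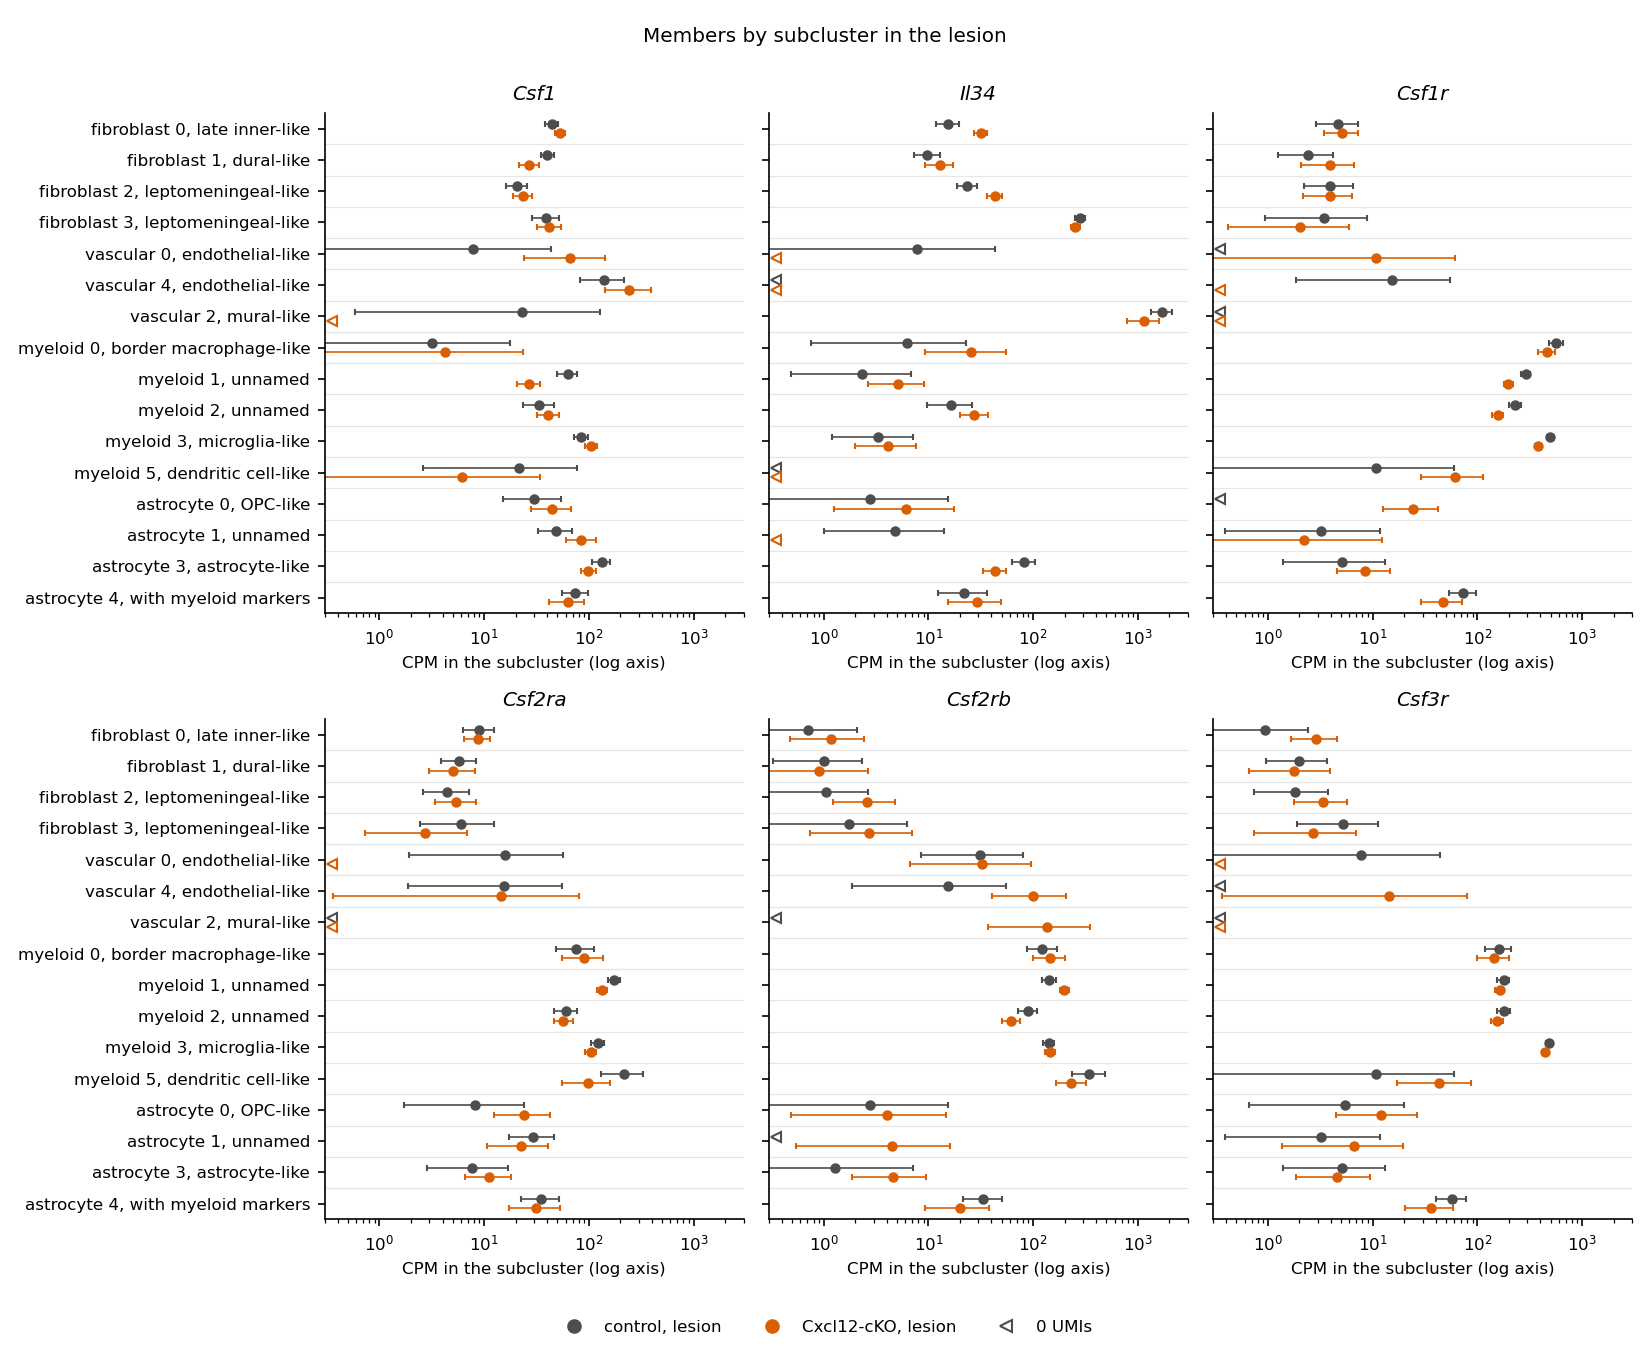
CPM of the 6 members (horizontal log axes) by subcluster in the lesion, grey for the control-labelled and orange for the Cxcl12-cKO-labelled library, with exact 95% Poisson intervals and open triangles for subclusters with 0 UMIs. Il34 peaks in mural-like nuclei (1695 and 1149 CPM) and in fibroblast-like subcluster 3 (280 and 253 CPM), and dendritic cell-like nuclei are low for Csf1r and Csf3r and high for Csf2rb.

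Csf1r, which encodes the common receptor of both ligands, marked the myeloid-like class. In the lesion 88.4% and 91.0% of its UMIs were in myeloid-like nuclei, which made up 21.9% and 29.0% of the nuclei. A Csf1r UMI was found in 52.6% and 44.5% of lesional myeloid-like nuclei, at medians of 2163 and 2371 UMIs, against 1.18% and 1.45% of fibroblast-like nuclei at medians of 3060 and 3099 UMIs and 4.80% and 3.85% of T cell-like nuclei at 1366 and 1411 UMIs. The fibroblast share stands here as the level in a cell type that should lack the receptor.

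Within the myeloid-like class Csf1r was highest in border-associated macrophage-like nuclei, 566 (486 to 655) and 462 (379 to 557) CPM. Microglia-like nuclei had 490.2 (459 to 523) and 377 (352 to 402) CPM, and subcluster 1, led by Fabp4, Il7r and Cd36, 290.5 and 198.5 CPM. The intervals of macrophage-like and microglia-like nuclei overlapped. Dendritic cell-like nuclei were at the low end with 10.7 (1 UMI) and 60.9 (10 UMIs) CPM.

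Csf3r was like Csf1r in its concentration in the myeloid-like class. Its UMIs were 88.7% and 92.4% in lesional myeloid-like nuclei. Of these nuclei 44.2% and 42.2% had a Csf3r UMI, against 0.627% and 0.958% of fibroblast-like nuclei. Within this class Csf3r did not keep the order of Csf1r, whose macrophage-like and microglia-like intervals overlapped. Microglia-like nuclei had Csf3r at 481 (450 to 514) and 442 (416 to 470) CPM. Lower levels were found in subcluster 1, with 178 and 164 CPM, and in macrophage-like nuclei, with 160.3 and 144 CPM. Csf1r and Csf3r had a correlation of 0.95 over 26 class, region and library groups, which share libraries. They occurred together in 473 of 1772 and 526 of 2303 lesional myeloid-like nuclei, against 413 and 432 from the product of the shares.

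The GM-CSF receptor chains differed from each other. Csf2rb was highest in dendritic cell-like nuclei, 342 (234 to 483) and 232 (164 to 318) CPM, and lowest among the larger subclusters in myeloid subcluster 2, with 88.9 and 61.8 CPM. In that subcluster 29.1% of nuclei had UMIs of both sexes and the leading genes were fibroblast genes. It was left unnamed because no marker list of a myeloid state passed the naming rule. Microglia-like nuclei held Csf2rb at 141 and 144 CPM. Reads of Csf2rb and its near-identical neighbour Csf2rb2 may be exchanged in counting, so their split is uncertain.

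Csf2ra, the GM-CSF-binding chain, was at 120.1 (110 to 131) and 101 (93.7 to 109) CPM in lesional myeloid-like nuclei. Dendritic cell-like nuclei had 214 (131 to 330) and 97.5 (55.7 to 158) CPM, from 20 and 16 UMIs, and subcluster 1 had 174 and 134 CPM. Csf2ra and Csf2rb occurred together in 126 and 183 lesional myeloid-like nuclei, against 104 and 147 from the product of the shares.

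In the parenchyma Csf2ra was also found in neurons. Excitatory neuron-like nuclei held 80.2% and 76.7% of its UMIs at 76.1% and 73.2% of the nuclei, and inhibitory neuron-like nuclei 18.3% and 21.6% at 17.4% and 19.2%, close to their shares of nuclei. Parenchymal myeloid-like nuclei had a level of 140.1 (72.4 to 245) and 81.0 (35.0 to 160) CPM, from 12 and 8 UMIs. Excitatory neuron-like nuclei of the parenchyma had 30.9 (29.2 to 32.7) and 29.2 (27.6 to 31.0) CPM. The level in inhibitory neuron-like nuclei was 39.7 (35.2 to 44.6) and 38.9 (34.7 to 43.4) CPM. A Csf2ra UMI was found in 41.4% and 39.8% of parenchymal excitatory neuron-like nuclei, at medians of 17469 and 18410 UMIs. In the same nuclei the share with a Csf1r UMI was 1.83% and 2.31% and the share with a Csf2rb UMI 0.776% and 1.06%.

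After thinning every nucleus to 1000 UMIs, 3.16% and 2.90% of parenchymal excitatory neuron-like nuclei had a Csf2ra UMI, against 11.5% and 9.02% of lesional myeloid-like nuclei. Thinning leaves out shallower nuclei. Per 100 UMIs of 9 myeloid markers, Csf2ra counted 2.69 and 2.63 in lesional myeloid-like nuclei and 69.7 and 57.9 in parenchymal excitatory neuron-like nuclei. The part of myeloid RNA in the neuronal level was not tested. Over the parenchymal subclusters with at least 40 nuclei in each library Csf2ra was between 21.7 and 48.0 CPM.

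Pattern likeness over the 26 groups, as Pearson's r of log2(CPM + 1) among 16390 genes, is a description. The genes nearest to Csf1 were Cnksr3 (0.943), Baz2b (0.937) and Gab1 (0.932), and those nearest to Il34 were Rnf152 (0.834), Itga3 (0.817) and Adgrl2 (0.816). Csf1r was nearest to Ly86 (0.966), Lyz2 (0.959) and Ncf1 (0.958), and Csf3r to C3ar1 (0.975), Ly86 (0.971) and Fcgr3 (0.963). For Csf2rb they were Stab1 (0.954), Anapc15 (0.941) and Adgre1 (0.937), and for Csf2ra Napsa (0.845), Atp13a2 (0.792) and Camk1 (0.791). The patterns of Csf1 and Il34 were unrelated, with an r of -0.032.

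The design allows lesion to be set against parenchyma within a class, with the library as a block, in 4 sums and 1 residual degree of freedom. edgeR's quasi-likelihood test was fitted over all genes of each class with Benjamini-Hochberg adjustment. The strongest member result was Csf2ra in excitatory neuron-like nuclei, which was lower in the lesion. It stood at 15.5 and 14.4 CPM in the lesion and at 30.9 and 29.2 CPM in the parenchyma, so both lesion levels lay below both parenchymal levels. The log2 change was -0.90 (SE 0.14, edgeR adjusted p = 1.6e-05), and 16.9% of the 17812 genes tested in this class were lower in the lesion by the same rule.

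Csf2ra was also lower in inhibitory neuron-like nuclei of the lesion, at 16.1 and 20.8 CPM against 39.7 and 38.9 CPM in the parenchyma. The log2 change was -1.03 (SE 0.23, edgeR adjusted p = 0.0386), in a class in which 4.32% of 13861 genes were lower. The excitatory call also held with DESeq2 (-0.89, adjusted p = 0.00489), while the inhibitory call did not hold with DESeq2 (adjusted p = 0.507) or with all barcodes (0.0846). Neither neuronal call held in edgeR after thinning to 1000 UMIs, with changes of -0.80 (edgeR adjusted p = 0.322) and -0.96 (0.614).

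The lower Csf2ra was seen within neuron types. In upper layer-like nuclei it was 18.1 (12.9 to 24.8) and 9.72 (3.91 to 20.02) CPM in the lesion against 31.0 (27.6 to 34.7) and 32.8 (29.5 to 36.4) CPM in the parenchyma. In middle layer-like nuclei it was 10.4 (5.18 to 18.6) and 6.31 (1.30 to 18.4) against 31.4 (27.4 to 35.7) and 23.3 (19.9 to 27.2) CPM. Deep layer-like subcluster 10 had 17.7 and 17.3 against 32.6 and 28.3 CPM. Unnamed subcluster 0 had 14.0 and 15.6 against 26.0 and 21.7 CPM, and Pvalb/Sst-like nuclei had 12.2 and 24.7 against 37.8 and 34.8 CPM. These 5 subclusters were those with at least 40 nuclei in each matrix, and the lesion value was the lower in each library of each. The intervals did not overlap in the 5 control-labelled pairs and in 2 of the 5 Cxcl12-cKO-labelled pairs, those of upper and middle layer-like nuclei. Il34 did not pass the test, with 27.9 and 23.0 CPM in lesional and 29.8 and 28.4 CPM in parenchymal excitatory neuron-like nuclei (log2 change -0.07, SE 0.127, edgeR adjusted p = 0.706).

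**Figure D3:**
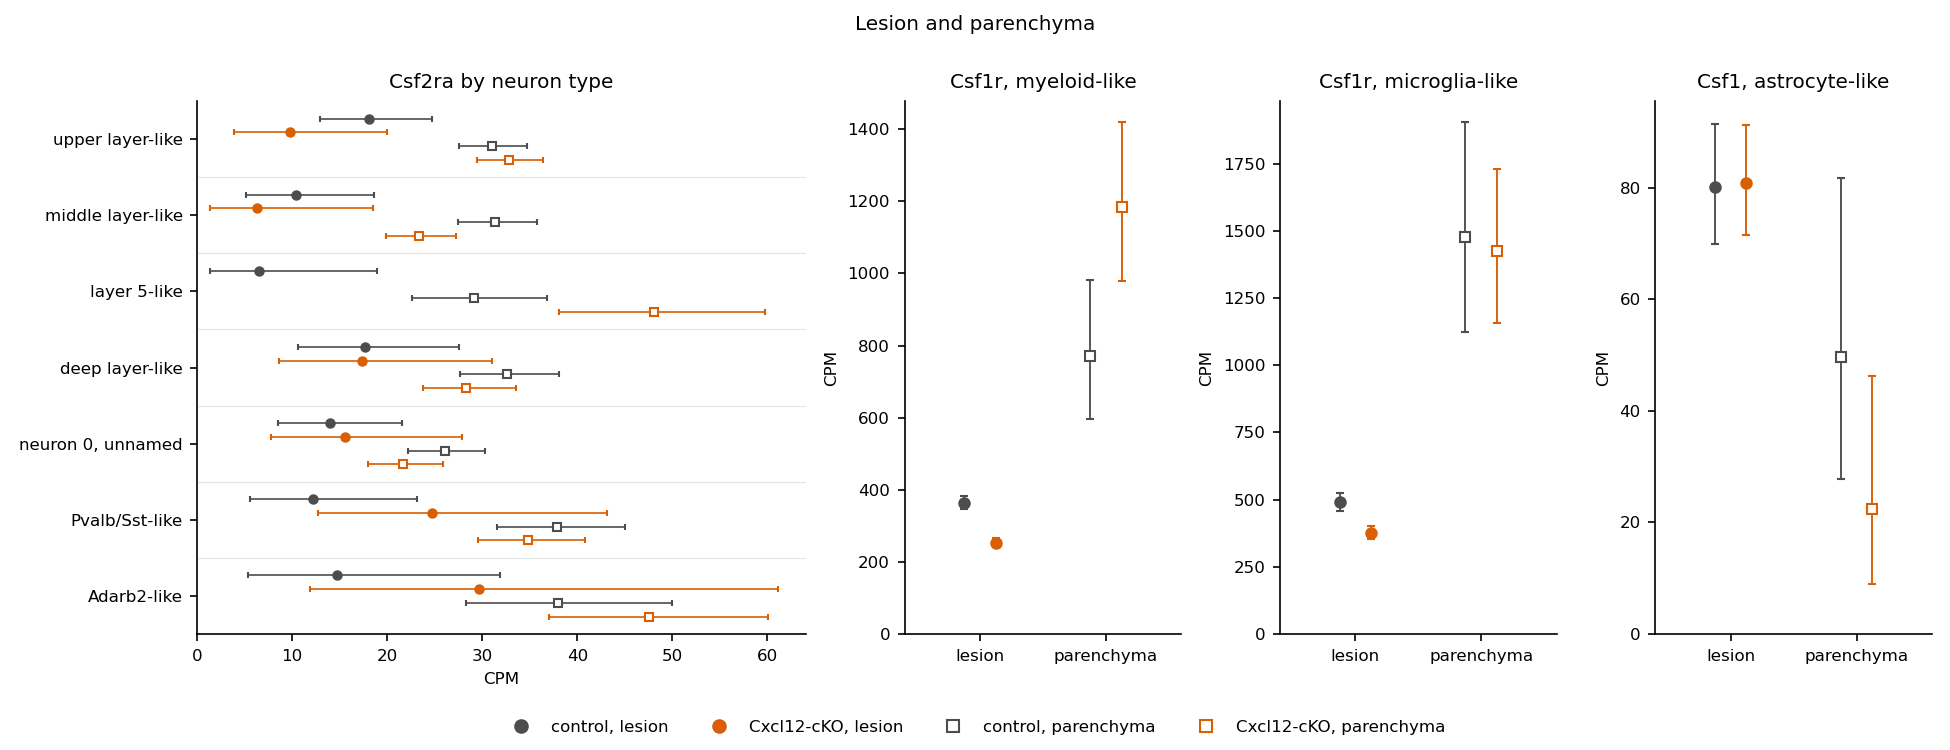
CPM of Csf2ra by neuron type (left, horizontal axis), of Csf1r in myeloid-like and microglia-like nuclei and of Csf1 in astrocyte-like nuclei (vertical axes), in lesion (filled circles) and parenchyma (open squares) of the control-labelled (grey) and Cxcl12-cKO-labelled (orange) library, with exact 95% Poisson intervals and groups of at least 20 nuclei. Csf1r in microglia-like nuclei is 490.2 and 377 CPM in the lesion and 1477 and 1423 CPM in the parenchyma.

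In excitatory neuron-like nuclei 3 further members were higher in the lesion, as were 14.4% of the genes tested. They were Csf3r (2.64 and 2.55 against 0.604 and 0.925 CPM, log2 change 1.94, edgeR adjusted p = 0.00265), Csf1r (2.51 and 2.87 against 1.06 and 1.39 CPM, 1.26, adjusted p = 0.0224) and Csf1 (6.61 and 5.11 against 3.90 and 4.19 CPM, 0.69, adjusted p = 0.0417). Without neuron subcluster 9, which had UMIs of both sexes in 48.0% of nuclei and non-neuronal leading genes, the changes were 1.20 (edgeR adjusted p = 0.123) for Csf3r, 0.04 (0.972) for Csf1r and 0.49 (0.196) for Csf1, in a fit chosen after the data were seen, so none of the 3 calls held. None held either without the highest Scrublet scores (edgeR adjusted p = 0.202, 0.985 and 0.273) or with DESeq2 (0.0849, 0.279 and 0.429), and those of Csf1r with all barcodes (0.115) and of Csf1 with no filter on low counts (0.0552) were lost too. Csf1r was also called higher in inhibitory neuron-like nuclei (9.53 and 5.93 against 2.12 and 1.70 CPM, 2.07, edgeR adjusted p = 0.0476), as were 1.7% of genes, and this call was lost with all barcodes (0.0843) and with DESeq2 (0.486). The 2 member calls of this class, Csf2ra and Csf1r, became 1 without the highest Scrublet scores. They also became 1 without subclusters that carry markers of another class, and 0 after thinning. The myeloid marker sum of inhibitory neuron-like nuclei was 117 and 72.7 CPM in the lesion and 63.1 and 59.9 CPM in the parenchyma, and its part in the Csf1r call was not tested.

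Csf1r in myeloid-like nuclei had lower levels in the lesion in both libraries. It was 364 (347 to 382) and 254 (242 to 266) CPM in the lesion and 771 (596 to 980) and 1184 (979 to 1419) CPM in the parenchyma, from 66 and 117 UMIs in 32 and 46 parenchymal nuclei. The log2 change of -1.48 (SE 0.47) did not pass the test (edgeR adjusted p = 0.059). It passed under 6 of 8 other settings of the whole class, with adjusted p from 1.65e-09 (edgeR, all barcodes) to 0.0431 (edgeR, resolution 0.5), and not with no filter (0.134) or with DESeq2 (0.0597). Of the nuclei assigned to a mouse, those of the control male went the other way, with 191.5 CPM in the parenchyma (7 UMIs in 6 nuclei) against 336 CPM in the lesion. The control female had 1016 CPM in the parenchyma and 413 CPM in the lesion. Within microglia-like nuclei alone it was -1.54 (edgeR adjusted p = 1.63e-07), an alternative chosen after the data were seen.

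The microglia-like levels were 490.2 and 377 CPM against 1477 (1124 to 1905) and 1423 (1157 to 1730) CPM, and the lesion levels lay below the parenchymal intervals in both libraries. Parenchymal microglia-like nuclei numbered 24 and 37, of which 87.5% and 91.9% had a Csf1r UMI, against 59.5% and 51.8% in the lesion. Csf3r in the same nuclei was 481 and 442 CPM in the lesion and 776 and 626 CPM in the parenchyma, with a log2 change of -0.37 (edgeR adjusted p = 0.514). In the whole myeloid-like class 0 of 6 members passed edgeR's test, 2 of 6 had an unadjusted p under 0.05 and 0 were called by DESeq2, where 5.09% of 12713 genes were called in either direction. Removing myeloid subcluster 2, which carried fibroblast markers, called Csf1r (-1.67, edgeR adjusted p = 1.19e-07) and Csf3r (-1.03, edgeR adjusted p = 0.00175), also chosen after the data were seen. The myeloid marker sum of the class was 4460 and 3848 CPM in the lesion and 5709 and 7074 CPM in the parenchyma, over 9 of 9 markers, and its part in these differences was not tested.

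Csf1 in astrocyte-like nuclei was higher in the lesion, at 80.1 and 80.8 CPM against 49.6 (27.8 to 81.8) and 22.4 (9.01 to 46.2) CPM in the parenchyma. The log2 change was 1.05 (SE 0.35, edgeR adjusted p = 0.0265), beside 10.5% of 11987 genes higher and 10.3% lower. The change was 0.69 within the control-labelled and 1.85 within the Cxcl12-cKO-labelled library. The call was lost with all barcodes (edgeR adjusted p = 0.158), at resolution 0.5 (0.17), without the highest Scrublet scores (0.108), with DESeq2 (0.416) and in astrocyte subclusters 1 to 3 alone (0.114). After thinning the change was 0.22 (edgeR adjusted p = 0.917). The parenchymal values rested on 15 and 7 UMIs in 58 and 60 nuclei. The class was made of different subclusters in each region. Subcluster 2 held 33 and 42 of the parenchymal but 54 and 19 of 629 and 676 lesional nuclei, and subclusters 1 and 3 held 4 and 4 parenchymal nuclei. Oligodendrocyte precursor-like subcluster 0 held 19 and 12 parenchymal and 74 and 101 lesional nuclei. The part of this makeup in the changes of the class was not tested beyond the fit on subclusters 1 to 3.

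Il34 in the same class was at 31.4 and 24.8 CPM in the lesion against 6.61 and 9.60 CPM, and did not pass (edgeR adjusted p = 0.0506). Csf3r was called (edgeR adjusted p = 0.00792, and 0.0511 at resolution 0.5) with 47 and 43 UMIs in the lesion and 0 and 0 in the parenchyma, which allows up to 12.2 and 11.8 CPM. Lesional Csf3r was 56.9 and 35.8 CPM in astrocyte subcluster 4, whose leading genes were myeloid, and 5.13 and 4.61 CPM in subcluster 3. The myeloid marker sum of astrocyte-like nuclei was 401 and 357 CPM in the lesion and 112 and 134 CPM in the parenchyma, and its part in the Csf3r call was not tested.

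In fibroblast-like nuclei 0 of 6 members passed edgeR's test, 0 had an unadjusted p under 0.05 and 0 were called by DESeq2, where 9.07% of 14936 genes were called. Csf1 was 36.0 and 38.0 CPM in the lesion and 62.6 and 51.6 CPM in the 51 and 50 fibroblast-like nuclei of the parenchyma. In oligodendrocyte-like nuclei 2 of 6 members could be tested, 0 passed in edgeR and in DESeq2 and 1 had an unadjusted p under 0.05, in a class with 0% of 6426 genes called.

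Of 25 other genes of the pathway, among them signal transducers, feedback genes and myeloid transcription factors, several differed between regions. In astrocyte-like nuclei 6 of 14 tested were higher in the lesion (Plcg2, Irf8, Stat5a, Stat3, Socs3 and Runx1) and 1 was lower, Ptprz1, which encodes a second receptor for IL-34. Of all genes tested in this class, 10.5% were higher and 10.3% lower. Runx1, a transcription factor gene, was 230 and 288 CPM in lesional and 13.2 and 9.60 CPM in parenchymal astrocyte-like nuclei (log2 change 4.37, edgeR adjusted p = 1.75e-11). Socs3, a feedback inhibitor gene of cytokine signalling, had 17.7 and 13.9 CPM in the lesion and 1 and 0 UMIs in the parenchyma (edgeR adjusted p = 0.0344). Ptprz1, named after its values were seen, was 1176 and 1107 CPM in the lesion and 2543 and 2484 CPM in the parenchyma (log2 change -1.26, edgeR adjusted p = 8.82e-07). The higher myeloid marker sum and the different subclusters of lesional astrocyte-like nuclei stand beside these changes as well, and their part was not tested.

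In excitatory neuron-like nuclei 8 of 17 pathway genes were higher and 2 lower, Ptprz1 and Il5ra. Il5ra, the gene of the IL-5-binding chain that pairs with CSF2RB, had 1 and 2 UMIs in the lesion (0.132 and 0.638 CPM). In the parenchyma it had 84 and 81 UMIs (2.11 and 2.08 CPM). Its log2 change of -2.75 (edgeR adjusted p = 0.0030) rests on few lesional UMIs. In fibroblast-like nuclei 3 of 18 were higher and 0 lower, and Runx1 was 309 and 396 CPM in the lesion and 13.4 and 23.4 CPM in the parenchyma (4.34, edgeR adjusted p = 2.53e-08). Late inner-like subcluster 0 held 1233 and 1519 lesional but 0 and 2 parenchymal nuclei, and subcluster 1 held 30 and 28 of the parenchymal nuclei, and the part of this makeup was not tested. In myeloid-like nuclei 1 of 17 was higher, Cbl, the gene of a ubiquitin ligase that acts on CSF1R (372 and 398.5 against 93.4 and 202 CPM, 1.60, edgeR adjusted p = 0.0312). There 1 was lower, Tyrobp, an adaptor gene (166 and 121 against 654 and 880.5 CPM, -2.24, edgeR adjusted p = 0.00114). Of all 12713 genes tested in this class, 5.09% were called in either direction. Microglia-like nuclei were 24 of 32 and 37 of 46 in the parenchyma, and 807 of 1772 and 959 of 2303 in the lesion. The part of this makeup and of the myeloid marker sum in these 2 calls was not tested. The counts were 2 higher and 1 lower of 12 in inhibitory neuron-like nuclei and 0 of 7 in oligodendrocyte-like nuclei. Of all genes tested, 14.4% were higher and 16.9% lower in excitatory neuron-like nuclei, and 1.7% and 4.32% in inhibitory neuron-like nuclei. In either direction 9.07% were called in fibroblast-like and 0% in oligodendrocyte-like nuclei.

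Between the genotype labels, Csf1r of lesional myeloid-like nuclei was lower under Cxcl12-cKO. The 364 and 254 CPM, from 1713 and 1772 UMIs, gave a log2 ratio of -0.52 (-0.62 to -0.43). In lesional myeloid-like nuclei 10.3% of 14734 genes had an interval below 0 and 8.61% an interval above 0. The ratio was below 0 in each larger subcluster, with -0.38 (-0.52 to -0.25) in microglia-like nuclei, -0.55 (-0.75 to -0.35) in subcluster 1, -0.55 (-0.80 to -0.29) in subcluster 2 and -0.29 (-0.65 to 0.06) in macrophage-like nuclei, the last within counting error.

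By the mouse to which nuclei could be assigned from sex-linked genes, lesional myeloid Csf1r was 413 CPM in the control female, 336 in the control male, 275 in the Cxcl12-cKO female and 230 in the Cxcl12-cKO male. Both Cxcl12-cKO mice thus lay below both control mice, as they did for 17.6% of 13819 genes. With 2 mice against 2 the exact permutation test cannot go below p = 0.333, the value found here (two-sided). The same order held in microglia-like nuclei, with 497 and 485 CPM in the control mice and 402 and 354 CPM in the Cxcl12-cKO mice. These nuclei are a large part of the same class sum, so this is not a separate result. The share of genes whose mice separate in this way was not computed within them. The myeloid marker sum was 4460 and 3848 CPM, and per 100 of its UMIs Csf1r counted 8.17 and 6.59. The part of the marker sum in the Csf1r difference was not tested.

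Of the other members in lesional myeloid-like nuclei, Csf2ra and Csf3r had intervals below 0, Il34 above 0 and Csf1 and Csf2rb across 0. Csf2ra was at 120.1 and 101 CPM (log2 ratio -0.25, -0.41 to -0.09). In control female, control male, Cxcl12-cKO female and Cxcl12-cKO male mice it was at 126, 130.4, 99.8 and 111 CPM. Both Cxcl12-cKO mice lay below both control mice, as for 17.6% of genes. Csf3r was at 289 and 254 CPM (-0.19, -0.29 to -0.09), and its mice overlapped, at 282, 265, 267 and 252 CPM. Il34 rested on 29 and 74 UMIs (0.78, 0.14 to 1.45), and both Cxcl12-cKO mice lay above both control mice, as for 16.3% of genes. That order rested on 11 and 11 UMIs in the control female and male and 26 and 16 in the Cxcl12-cKO female and male. The other Il34 UMIs were in nuclei not assigned to a mouse. Within each sex the interval crossed 0, with 0.44 (-0.63 to 1.60) in the females and 0.36 (-0.84 to 1.61) in the males. Over the class the intervals of Csf1 (-0.11, -0.34 to 0.11) and Csf2rb (0.13, -0.02 to 0.27) crossed 0. Within each sex Csf2rb was higher under Cxcl12-cKO, at 139 and 166 CPM in the females (0.26, 0.04 to 0.48) and 106 and 131 CPM in the males (0.32, 0.02 to 0.61), while the mice of the labels overlapped.

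Below that class level Csf1 and Csf2rb moved in different directions among subclusters. Csf1 was 62.5 (49.5 to 77.8) and 26.6 (20.4 to 34.1) CPM in subcluster 1 (log2 ratio -1.23, -1.74 to -0.74) and 84.4 and 105 CPM in microglia-like nuclei (0.32, 0.02 to 0.61). Csf2rb was 142 and 199 CPM in subcluster 1 (0.49, 0.24 to 0.74) and 88.9 and 61.8 CPM in subcluster 2 (-0.53, -0.94 to -0.11). Csf2rb2 over the class was 50.2 and 63.6 CPM (0.34, 0.11 to 0.58).

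**Figure D4:**
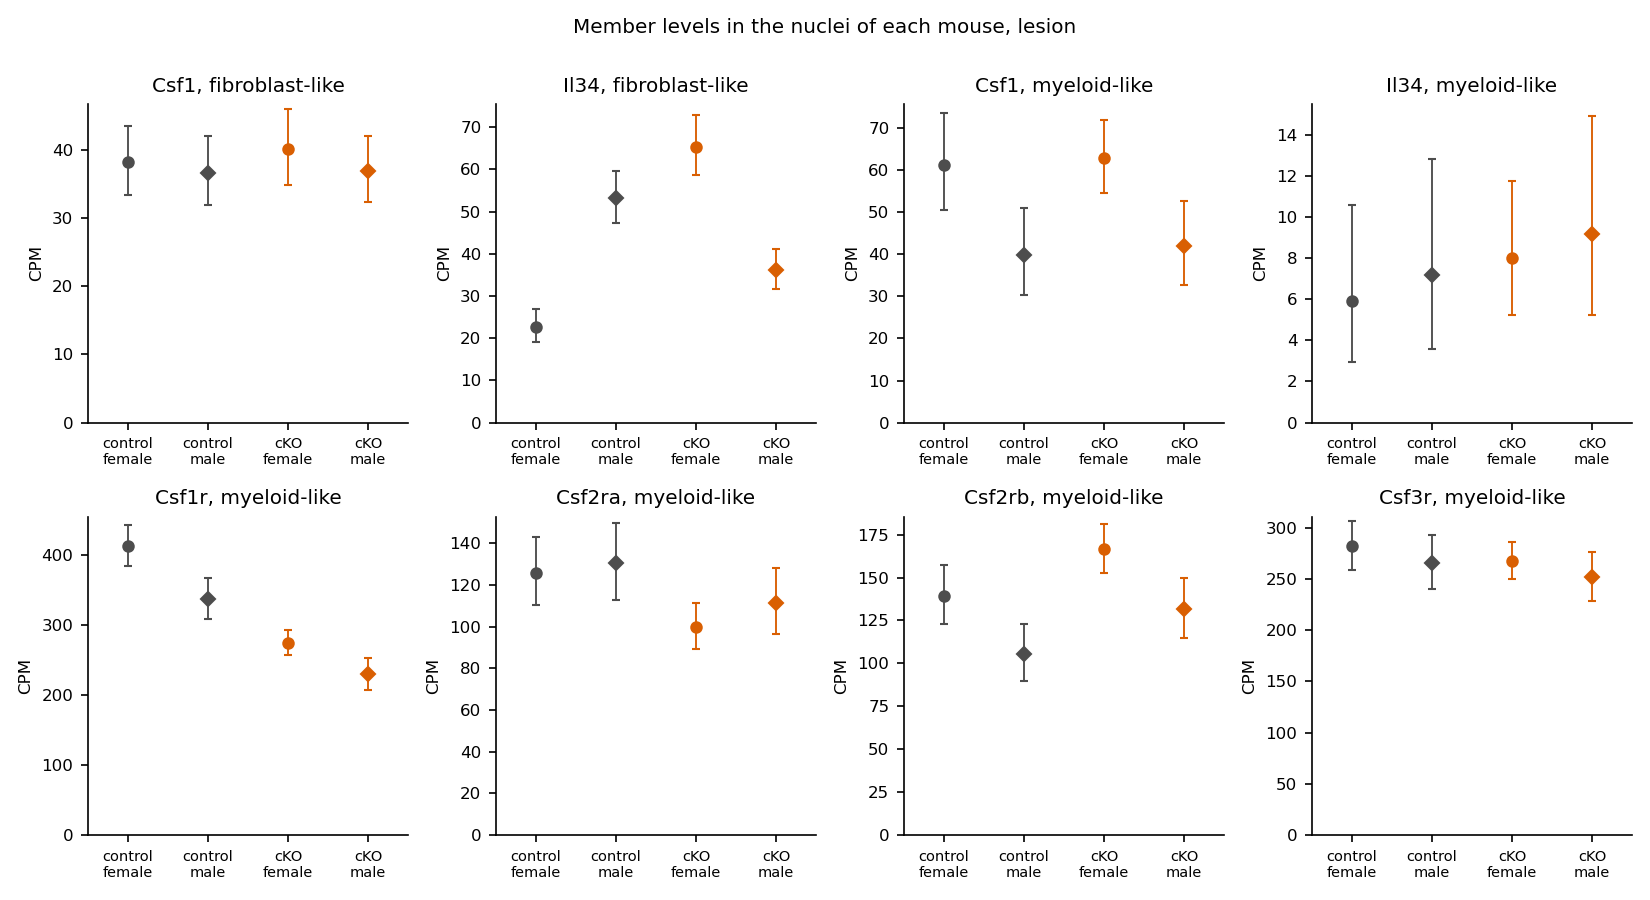
CPM in the nuclei of each mouse of the lesion (vertical axes from 0), with grey for the control label, orange for the Cxcl12-cKO label, circles for female and diamonds for male mice, and exact 95% Poisson intervals. Myeloid Csf1r is 413 and 336 CPM in the control and 275 and 230 CPM in the Cxcl12-cKO mice, and fibroblast Il34 is 22.8 and 53.2 CPM against 65.5 and 36.1 CPM.

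Il34 of lesional fibroblast-like nuclei was higher under the label Cxcl12-cKO, at 37.1 (34.0 to 40.4) and 52.9 (49.2 to 56.8) CPM, a log2 ratio of 0.51 (0.35 to 0.68). In this class 12.8% of 16551 genes had an interval above 0 and 12% below. The mice did not share the direction. Il34 was 22.8 CPM in the control female, 53.2 in the control male, 65.5 in the Cxcl12-cKO female and 36.1 in the Cxcl12-cKO male, so the groups overlapped.

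The share of fibroblast-like nuclei in the Il34-rich subcluster 3 followed the same order, at 6.63%, 10.7%, 15.2% and 7.24% in these mice. Leaving out subcluster 3 was chosen after the data were seen. Il34 was then 12.9 and 20.03 CPM in the control mice and 32.3 and 24.4 CPM in the Cxcl12-cKO mice, which did not overlap. The share of genes whose mice separate in this way was not computed for these nuclei. By state the ratio was 1.05 (0.63 to 1.48) in late inner-like nuclei, 0.87 (0.49 to 1.25) in leptomeningeal-like subcluster 2 and -0.14 (-0.36 to 0.08) in subcluster 3.

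Csf1 of lesional fibroblast-like nuclei did not differ beyond counting error, with a log2 ratio of 0.08 (-0.10 to 0.25) and 38.2, 36.7, 40.1 and 36.9 CPM in the mice. Only the dural-like state among the 4 had an interval off 0, at 40.2 and 26.9 CPM (-0.58, -0.95 to -0.21). There both control mice, at 41.2 and 40.6 CPM, lay above both Cxcl12-cKO mice, at 24.6 and 30.2 CPM. The share of genes whose mice separate in this way was not computed within this state, and this order was not tested. The receptor genes in fibroblast-like nuclei had intervals across 0.

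Among the other classes of the lesion, Il34 of astrocyte subcluster 3 was lower under Cxcl12-cKO, at 82.1 and 42.8 CPM (log2 ratio -0.94, -1.46 to -0.42). Csf1 was lower in the same subcluster (132 and 98.7 CPM, -0.42, -0.79 to -0.04) and higher in astrocyte subcluster 1 (48.5 and 84.6 CPM, 0.80, 0.07 to 1.54). The endothelial-like class mixed endothelial-like, mural-like and fibroblast-marked subclusters and its ratio between libraries is not read as a difference within a cell type. In the parenchyma, no member of excitatory neuron-like nuclei had an interval off 0, and Il34 of inhibitory neuron-like nuclei was 22.3 and 28.1 CPM (0.33, 0.03 to 0.63). That ratio was -0.17 (-0.58 to 0.25) over nuclei of the females and 0.90 (0.37 to 1.44) over nuclei of the males.

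Of the 25 other pathway genes, 20 had at least 20 UMIs in lesional myeloid-like nuclei. The intervals of 2 were above 0 and of 5 below 0, with a median log2 ratio of -0.07 beside -0.02 over all genes. The largest ratio, that of Socs3, rested on 32 and 30 UMIs and its interval crossed 0 (-0.66, -1.43 to 0.10). Tyrobp was lower (166 and 121 CPM, -0.46, -0.60 to -0.31) and Csf2rb2 and Cbl were higher. The others below 0, named after their values were seen, were Spi1, the gene of the myeloid transcription factor PU.1 (184 and 148 CPM, -0.31, -0.44 to -0.18), Irf8, Stat3 and Runx1. In lesional fibroblast-like nuclei 19 could be compared, of which 4 were above 0 (Irf8, Runx1, Cbl and Grb2) and 0 below, with a median of 0.10 beside 0.00 over all genes. Irf8 there was at 3.38 and 5.41 CPM, beside a myeloid marker sum of 114 and 145 CPM, whose part was not tested.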

How the data were processed

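Single-nucleus RNA-seq libraries were made with the 10x 3′ v3.1 chemistry and CellPlex tags, 1 library per genotype, each with a tagged lesion and a tagged parenchyma pool. The authors aligned reads to GRCm39 and made the count matrices with Cell Ranger 9.0.0, and the deposited values are raw UMI counts per gene and barcode. Each library held nuclei of 1 male and 1 female mouse, assigned here by Xist and Y-linked UMIs.

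Of 23489 barcodes, 21743 were kept, with 758 to 36243 UMIs, 585 to 6417 genes and under 8.74% mitochondrial UMIs. The cuts were the central 95% of UMIs and of genes, and only the upper 97.5 percentile of mitochondrial UMIs. The 12 tag features, 40.7% of all counts, were left out, and 52 features shared a symbol with another and were kept apart. Nuclei were clustered in scanpy 1.11.5 (3000 variable genes, 30 components, Leiden resolution 0.25), and clusters were named from fixed markers. Doublets were not removed in the values reported, and removing the highest 10% of Scrublet scores was an alternative. Totals over all deposited barcodes were 34769874 and 31995274 UMIs in the lesions and 62701074 and 62749811 in the parenchyma. Over the kept nuclei they were 33470866 and 30864931 in the lesions and 47587997 and 48051671 in the parenchyma, so the filter removed more UMIs from the parenchyma.

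UMIs were summed by class, region and library. Ratios between genotypes, each 1 library, have exact binomial intervals and require at least 20 UMIs, and the values of 2 against 2 mice were compared by an exact permutation test. Lesion and parenchyma sums were tested with edgeR 4.0.16 (quasi-likelihood, TMM, library as block) for classes of at least 20 nuclei in every matrix, and with DESeq2 1.42.0 as an alternative. The library number pairs the sums because lesion and parenchyma of a number are from the same mice. On simulated counts 83.7% of genes changed by 2 on the log2 scale were recovered in excitatory neuron-like and 47.1% in myeloid-like sums. The simulation had a fixed dispersion, no difference between libraries, and changes only in genes above a minimum of UMIs. These shares do not give the recovery of smaller changes, such as those of Csf2ra and Csf1. Named were the 6 members, of the pathway genes with at least 20 UMIs up to 5 per comparison by largest absolute log2 ratio, and per member the 3 genes of highest correlation. The members, lists and tests were chosen with earlier results of these data known.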

Additional observations from a re-analysis of the deposited data

Results flagged for a closer look

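In 6 places 2 groups moved in opposite directions between the libraries, and none of these differences was tested. Values are log2 ratios of Cxcl12-cKO over control. Il34 in lesional fibroblast-like nuclei was 1.524 over nuclei of females and -0.558 over nuclei of males, a difference of 2.082, and the share of nuclei in the Il34-rich subcluster 3 moved in the same directions. In myeloid-like nuclei Csf1r was -0.522 in the lesion and 0.62 in the parenchyma, a difference of -1.142, and Csf3r was -0.19 and 0.912, a difference of -1.102. The parenchymal values came from 32 and 46 nuclei, and the parenchymal Csf1r ratio was -0.222 without subclusters that carry markers of another class.

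Within the lesion, Csf1 was 0.803 in astrocyte subcluster 1 and -0.42 in astrocyte subcluster 3, a difference of 1.223. Csf2rb was 0.485 in myeloid subcluster 1 and -0.525 in myeloid subcluster 2, a difference of 1.01, beside 29.1% of nuclei with UMIs of both sexes in subcluster 2. Csf1 was -1.233 in myeloid subcluster 1 and 0.315 in microglia-like subcluster 3, a difference of -1.548.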

How the results depend on the processing

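Of the ratios between genotypes under planned and added alternatives, 329 stayed within the spread or interval, 28 moved and 5 reversed. Il34 in lesional fibroblast-like nuclei was 1.524 in female and -0.558 in male nuclei. In lesional myeloid-like nuclei Csf1 was 0.237 with nuclei weighted alike, Csf2rb 0.315 in male nuclei, and Csf3r -0.076 in female and -0.075 in male nuclei. Csf1 of the lesional endothelial-like class was -0.627 in male nuclei, Il34 of parenchymal inhibitory neuron-like nuclei -0.166 in female nuclei, and Csf1r of parenchymal myeloid-like nuclei -0.221 with all barcodes and -0.222 without mixed subclusters. The cause was not tested.

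Of the lesion to parenchyma changes of members, 238 were the same, 23 lost and 14 gained a call, 8 moved and 9 reversed. The reversals, none of them of a called value except Csf1r in excitatory neuron-like nuclei, were Il34 (0.106) and Csf3r (-0.552) in fibroblast-like nuclei with all barcodes, and Csf1 in myeloid-like nuclei with no block (-0.102), all barcodes (-0.257) and no mixed subclusters (-0.159). Without the highest Scrublet scores they were Il34 in myeloid-like nuclei (-0.144), Il34 in excitatory neuron-like nuclei (0.014, and 0.15 after thinning) and Csf1r in excitatory neuron-like nuclei (-0.022).

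Members called, from 2 in astrocyte-like nuclei, were 1 with all barcodes and 0 at resolution 0.5, without high Scrublet scores, after thinning, with DESeq2 and in subclusters 1 to 3. From 4 in excitatory neuron-like nuclei they were 1 without high Scrublet scores, with DESeq2 and without mixed subclusters, and 0 after thinning. From 2 in inhibitory neuron-like nuclei they were 0 with all barcodes, DESeq2 and thinning, and 1 without high Scrublet scores and without mixed subclusters. From 0 in myeloid-like nuclei they were 2 with all barcodes and without mixed subclusters, and 1 with RLE scaling, at resolution 0.5, without high Scrublet scores, after thinning and in microglia-like nuclei alone. From 0 in oligodendrocyte-like nuclei it was 1 with no filter. The paired analysis used the library as a block. With no replicate block the members called were 4 in excitatory neuron-like, 2 in astrocyte-like, 3 in inhibitory neuron-like and 1 in myeloid-like nuclei.

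Genes called moved from 1354 in fibroblast-like nuclei to 3317 (all barcodes), 11 (thinned) and 638 (DESeq2), and from 647 in myeloid-like nuclei to 985, 431 and 186, with 1003 without high Scrublet scores. In astrocyte-like nuclei 2498 became 724 (thinned) and 756 (DESeq2), and in excitatory neuron-like nuclei 5567 became 605 and 2164. In oligodendrocyte-like nuclei 0 became 295 (no filter), 220 (all barcodes), 3 (resolution 0.5), 85 (Scrublet), 73 (thinned) and 10 (DESeq2). In inhibitory neuron-like nuclei 834 became 1760 (no filter), 441 (all barcodes), 167 (thinned) and 297 (DESeq2). Thinning leaves fewer UMIs by construction. Fits on subclusters were chosen after seeing the data.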
